A study of Mus musculus with 6 samples.

Results

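Excitation-contraction coupling is the step by which an electrical signal at the muscle cell surface releases calcium from the sarcoplasmic reticulum, the internal calcium store. The 10 genes described here encode its core parts. They were chosen by name out of the 54532 genes of the deposited tables, with earlier results of these data known. They are the release channels Ryr1 and Ryr3, the calcium pumps Atp2a1 and Atp2a2, the calcium-binding store proteins Casq1 and Casq2, the voltage sensor subunits Cacna1s and Cacnb1, and the junctional proteins Jph2 and Trdn. RNA-seq was performed on primary myoblasts, the proliferating precursors of muscle fibres, grown from hind-limb muscle of 3-week-old mice in DMEM with 10% FBS and FGF at 10 ug/ml and collected on day 2. The 6 libraries comprised 3 WT and 3 eIF5A-KO, the latter from Pax7-CreERT2/+;eIF5A f/f mice, in which tamoxifen-activated Cre removes eIF5A, a translation factor. Cre is driven from the Pax7 locus, so the gene can be lost only in cells that express Pax7 and in their descendants. Controls were wild-type littermates, and the sources differ on whether these carried the Cre allele. The comparison asked how RNA levels differed between these genotypes.

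In skeletal muscle the voltage sensor, a calcium channel of the surface membrane folded into T-tubules, is coupled mechanically to the ryanodine receptor Ryr1 across a narrow junction. Junctophilins such as Jph2 tie both membranes together, triadin (Trdn) joins the release channel to calsequestrin, and SERCA pumps (Atp2a1, Atp2a2) return calcium to the store. Most of this apparatus is built as myoblasts differentiate and fuse, whereas Atp2a2, the slow-muscle and housekeeping SERCA gene, is used by nearly every cell type.

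Sequencing depth was even, with 16281216 to 17734551 counts assigned to genes per library. WT replicate 1 stood apart, with 5.75% of counts from mitochondrial transcripts against 2.11% to 3.5% in the other libraries, and the 10 most abundant genes took 8.54% of its counts against 5.01% to 6.65%. Eif5a, the targeted gene, was at 1603, 986.3 and 1238 CPM (counts scaled to a common library size with TMM factors) in WT replicates 1 to 3 and at 1364, 1459 and 1059 CPM in libraries labelled eIF5A-KO. Its log2 fold change was 0.02 (95% confidence interval -0.51 to 0.55, edgeR adjusted p = 0.993), so the labelled deletion was not visible in the gene-level count, and whether the counted region includes the deleted part is not given in the sources used here. Directions below are therefore those of libraries labelled eIF5A-KO over WT. The study describes its RNA-seq as triplicate experiments, but the sources used here do not say whether each library came from its own animal or culture, so p-values measure the spread between these libraries, which may be partly technical.

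The labelled cell type was checked against marker genes, by the summed FPKM (fragments per kilobase of gene, scaled for library size) of each list. Myoblast markers such as Myod1 and Des summed to 240 to 547.8 FPKM in WT and 201.1 to 377.9 in libraries labelled eIF5A-KO. Differentiating myocyte markers summed to 212.3, 378.7 and 222.6 FPKM in WT replicates 1 to 3 and to 152.1, 195.2 and 218.9 in libraries labelled eIF5A-KO, and Tnnc2 was at 0 throughout. Markers of other cells were present too: fibroblast 775.4 to 1085, endothelial 203.8 to 546, mural and smooth muscle 90.07 to 179.4, and macrophage 15.43 to 49.93 FPKM. Cardiac markers reached 0.13 to 0.476 FPKM, with Myl7 at 0. These were cultures of muscle precursors with other muscle-resident cells. In such bulk samples, fewer cells of a type and less RNA per cell cannot be told apart.

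The genes fell in an order that spanned Atp2a2, with a mean level of 60.7 FPKM in WT, to Ryr3, with 0.00491 FPKM. The full WT order by mean FPKM was Atp2a2, Atp2a1, Jph2, Casq1, Cacnb1, Casq2, Ryr1, Cacna1s, Trdn and Ryr3. Neighbours in this order were separated beyond the range of their 3 libraries only between Atp2a2 and Atp2a1, between Casq1 and Cacnb1, and between Cacna1s and Trdn. In libraries labelled eIF5A-KO the order was the same except that Cacna1s stood above Ryr1, and the only neighbours with overlapping ranges were Casq1 and Cacnb1, Cacna1s and Ryr1, and Ryr1 and Trdn. The channel that opens the store and the sensor that triggers it were thus among the lowest of the set, while the housekeeping pump was the highest.

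**Figure D1:**
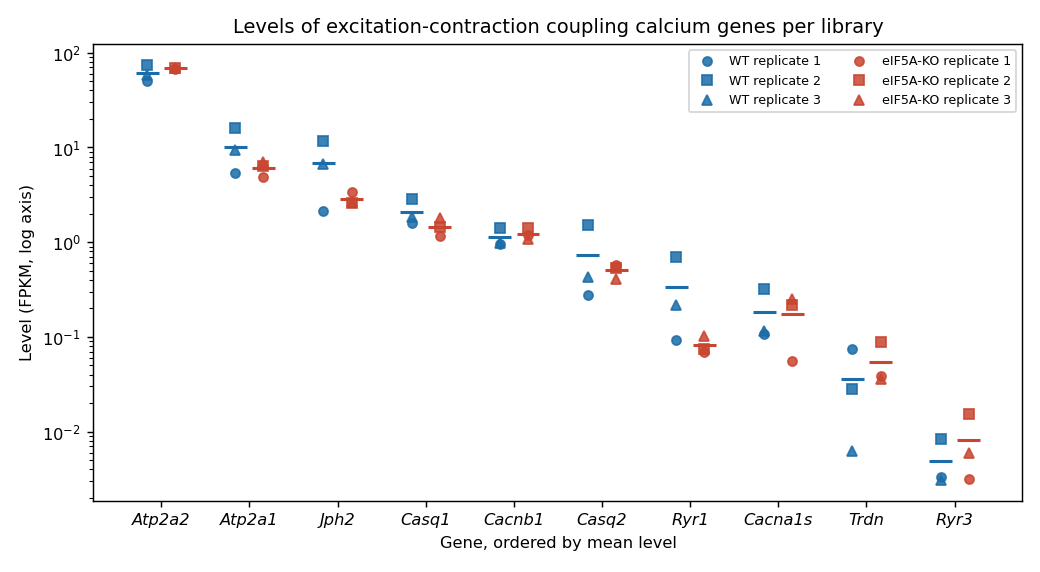
Level of each of the 10 genes in each library, in FPKM on a log axis, with WT in blue and libraries labelled eIF5A-KO in red, replicates 1 to 3 as circles, squares and triangles, and the group mean as a bar. WT replicate 2 (blue square) was the highest library for the 8 genes from Atp2a2 to Cacna1s, and the labelled eIF5A-KO libraries lay close together for Jph2 and Ryr1.

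The 250 bases upstream of the RefSeq start (GRCm38.p6, the build of the count tables, mm10) were available for 7 of the 10 genes, in 9 windows. Those of Ryr1, Jph2 and Atp2a1 are shown because these genes had the largest fitted decreases. Each is written 5′ to 3′ on the gene's strand and ends next to the start, and capitals mark the E-box CANNTG, the letters bound by MyoD-family factors.
Ryr1, chr7:29125152-29125401, minus strand: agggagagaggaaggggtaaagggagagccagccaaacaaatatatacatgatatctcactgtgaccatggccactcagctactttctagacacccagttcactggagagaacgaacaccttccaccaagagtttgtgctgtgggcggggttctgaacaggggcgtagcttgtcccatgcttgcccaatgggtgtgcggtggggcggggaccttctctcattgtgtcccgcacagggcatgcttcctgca
Jph2, chr2:163397994-163398243, minus strand: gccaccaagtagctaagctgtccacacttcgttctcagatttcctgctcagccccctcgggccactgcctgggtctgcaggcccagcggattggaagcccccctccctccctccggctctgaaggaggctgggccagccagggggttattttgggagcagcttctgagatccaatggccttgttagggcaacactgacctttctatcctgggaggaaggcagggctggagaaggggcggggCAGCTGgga
Atp2a1, chr7:126463074-126463323, minus strand: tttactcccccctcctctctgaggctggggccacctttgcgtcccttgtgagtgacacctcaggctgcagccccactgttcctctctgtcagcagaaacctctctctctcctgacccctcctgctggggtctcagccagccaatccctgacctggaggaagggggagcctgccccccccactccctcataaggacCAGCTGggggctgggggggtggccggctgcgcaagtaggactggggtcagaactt
The RefSeq starts of Ryr1 and Atp2a1 lie slightly inside the gene boundaries of the count table. The Ryr1 window held no E-box, the Jph2 window held CAGCTG with its first base 9 bases before the start, and the Atp2a1 window held CAGCTG 55 bases before it. Both strands were searched. An E-box CANNTG occurred in 7 of the 9 windows, which belong to 6 of the 7 genes, against 66.2% of 32851 RefSeq mouse promoter windows of the same length. Its form CAGCTG, which the wider motif includes, occurred in 5 of the 9 windows (Atp2a1, Casq1, Cacna1s and both of Jph2, which overlap each other), against 13% of promoter windows. The GC box GGGCGG occurred in 6 of the 9 windows against 32.7%, and the M-CAT element CATTCC in that of Cacna1s alone, 1 of the 9, against 12.6%. No window held the MEF2 box (0.508% of promoters) or the CArG box (1.47%). A match in these windows is a description of letters and does not show a binding site.

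Of the 10 genes, 8 had enough counts to be tested with edgeR's quasi-likelihood test, and 6 of these had lower and 2 had higher fitted levels in libraries labelled eIF5A-KO. None passed at an adjusted p of 0.05, where 0.0204% of all 14679 tested genes passed. DESeq2, limma-voom and limma on log2 FPKM also called 0 of the 8. At an unadjusted p under 0.05, Ryr1 and Jph2 were lower, against 4.02% of all tested genes, and 0 were higher, against 2.74%. That count of 2 lower genes became 3 with DESeq2, where Atp2a1 was added (unadjusted p = 0.0368) and 4% of all genes were lower at that p. It was 1 with limma-voom (Ryr1, against 3.81% of genes), and 0 with limma on log2 FPKM with 1 or 0.1 added (against 3.7% and 3.74%). In the edgeR fit of all 6 libraries, Ryr1 and Jph2 also changed by more than 2-fold, the criterion named in the study's methods. In that direction 1.32% of tested genes met it. For none of the 8 did the 3 libraries of one group lie wholly below or above those of the other, as occurred downward for 6.83% and upward for 5.68% of tested genes. The median log2 fold change of the 8 genes was -0.55, beside -0.01 over all tested genes, of which 7582 had lower fitted levels. The median of the 8 genes was -0.37 with limma-voom, and -0.21 and -0.33 with limma on log2 FPKM with 1 and 0.1 added. Leaving out WT replicate 2 in edgeR moved it to 0.036. Ryr1 and Jph2 did pass at an adjusted p of 0.05 in 2 other edgeR fits: that without a filter on low counts, where 0.924% of 26956 genes passed, and that without WT replicate 1, where 0.372% of 15056 genes passed.

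Ryr1 (ENSMUSG00000030592, chr7 from 29003344 to 29125179, minus strand, up to 109 annotated exons) encodes the calcium release channel of skeletal muscle. Its counts were 32, 288 and 82 in WT replicates 1 to 3, which correspond to 2.07, 15.3 and 4.84 CPM. Libraries labelled eIF5A-KO held 25, 28 and 40 counts, or 1.53, 1.66 and 2.27 CPM. WT replicate 2 stood far above the rest, while WT replicate 1 lay inside the range of the other group. The mean was 7.40 ± 6.96 CPM in WT and 1.82 ± 0.394 in libraries labelled eIF5A-KO (SD, n = 3 each). The fitted log2 fold change was -2.02 ± 0.63 (SE; 95% confidence interval -3.44 to -0.61), with an unadjusted p of 0.0101 and an edgeR adjusted p of 0.503. With mean FPKM as the measure, the two-sided permutation test, which was exact, gave p = 0.2, where 0.1 is the smallest value that 3 against 3 libraries allow. Without WT replicate 2 the log2 fold change was -0.92 and the edgeR unadjusted p was 0.0563, whereas without WT replicate 1 it was -2.45 with an adjusted p of 0.0467. In the annotation 3 genes on the opposite strand overlap Ryr1, and whether counting used strand is not given in the sources used here.

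Ryr3 (ENSMUSG00000057378, chr2 from 112631355 to 113217096, minus strand), the ryanodine receptor found in immature muscle and in many other tissues, was at the limit of detection. It had 1, 3 and 1 counts in WT and 1, 5 and 2 in libraries labelled eIF5A-KO, and did not reach the count filter. The sums of 5 and 8 counts gave a ratio of 1.61 with an exact 95% interval of 0.465 to 6.27, which covers counting error only. No difference was detectable at this depth. Aven overlaps Ryr3 on the opposite strand, so reads from the shared stretch cannot be told apart if counting ignored strand.

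Jph2 (ENSMUSG00000017817, chr2 from 163336242 to 163397993, minus strand) encodes junctophilin 2, which holds the store membrane close to the surface membrane. WT replicates 1 to 3 gave 142, 949 and 483 counts, or 9.18, 50.3 and 28.5 CPM. Libraries labelled eIF5A-KO gave 237, 186 and 201 counts, or 14.5, 11.01 and 11.4 CPM. WT replicates 2 and 3 were above all 3 of the other group, and WT replicate 1 was below them, so the groups overlapped. The mean was 29.3 ± 20.6 CPM in WT and 12.3 ± 1.91 in libraries labelled eIF5A-KO (SD, n = 3 each), and the log2 fold change was -1.26 ± 0.48 (SE; interval -2.34 to -0.17; edgeR unadjusted p = 0.0277, adjusted p = 0.644). The exact permutation test of mean FPKM gave p = 0.4. As for Ryr1, the estimate moved with single libraries: it was -0.62 without WT replicate 2 (edgeR unadjusted p = 0.146), and -1.67 without WT replicate 1 (edgeR adjusted p = 0.0199). The edgeR unadjusted p was also above 0.05 without the libraries labelled eIF5A-KO replicate 2 (0.0717) or 3 (0.0812). No annotated gene overlaps Jph2.

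Trdn (ENSMUSG00000019787, chr10 from 33080554 to 33476709, plus strand) encodes triadin, the junctional partner that anchors calsequestrin to the release channel. Its counts were 11, 5 and 1 in WT and 6, 14 and 6 in libraries labelled eIF5A-KO, too few for the filter. The ratio of the sums, 26 over 17 counts, was 1.54 (exact 95% interval 0.805 to 3.03, for counting error only, while the WT libraries alone differed by 11.9-fold in FPKM). The libraries of the groups overlapped, from 1 to 11 counts in WT and from 6 to 14 in the other group, and 8 annotated genes overlap it.

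The fitted changes of the pumps had opposite signs, neither passed after adjustment, and the difference between them was not tested. Atp2a1 (ENSMUSG00000030730, chr7 from 126445858 to 126463108, minus strand), the SERCA gene of fast-twitch muscle, was at 5.43, 15.9 and 9.35 FPKM in WT and at 4.85, 6.38 and 7.11 in libraries labelled eIF5A-KO. WT replicates 2 and 3 were above the other group and WT replicate 1 lay within it. The log2 fold change was -0.75 ± 0.35 (SE; interval -1.53 to 0.03; edgeR unadjusted p = 0.0567, adjusted p = 0.767), and it was -0.28 without WT replicate 2 and -1.04 without WT replicate 1. Atp2a2 (ENSMUSG00000029467, chr5 from 122453513 to 122502225, minus strand) was at 49.9, 74.7 and 57.6 FPKM in WT and at 67.4, 68.5 and 69.8 in libraries labelled eIF5A-KO. Its log2 fold change was 0.17 ± 0.19 (SE; interval -0.26 to 0.60; edgeR adjusted p = 0.939), so fold changes between 0.833 and 1.52 remained within the interval. Rabep2 overlaps Atp2a1 on the opposite strand.

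The share of Atp2a1 in the summed FPKM of both pumps, a ratio formed within each library, was 9.82%, 17.6% and 14.0% in WT and 6.71%, 8.52% and 9.24% in libraries labelled eIF5A-KO. The means were 13.8% ± 3.87 and 8.16% ± 1.30 (SD, n = 3 each), and the groups did not overlap, with 9.24% the highest of one and 9.82% the lowest of the other. No test was made of the shares, and the separation was seen only after the values were known. Casq1 made up 85.1%, 65.3% and 81.3% of summed calsequestrin FPKM in WT and 66.6%, 72.9% and 81.3% in libraries labelled eIF5A-KO, so the ranges overlapped widely. Ryr1 made up 95.6% or more of summed Ryr1 and Ryr3 FPKM in 4 of the 6 libraries, with 83.0% and 94.6% in libraries labelled eIF5A-KO replicates 2 and 3, where the Ryr3 part rested on 5 and 2 counts.

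**Figure D2:**
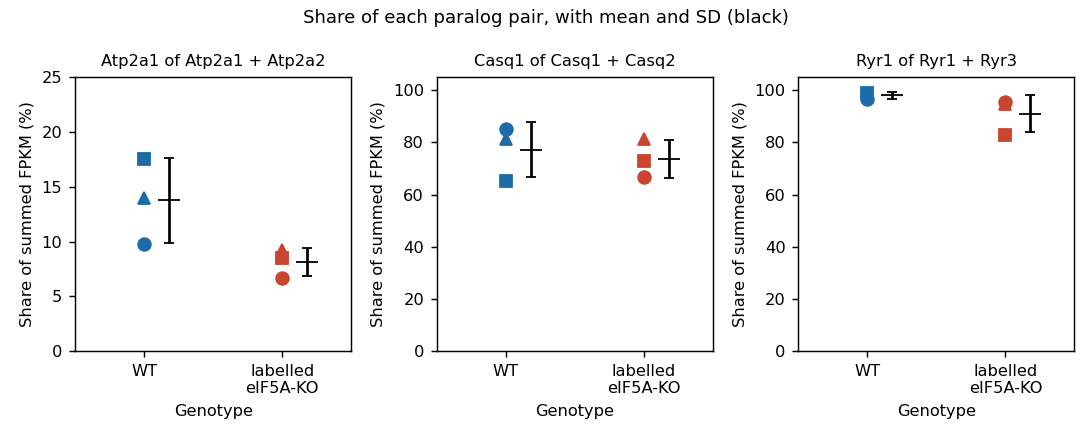
Share of the first gene in the summed FPKM of each paralog pair, in percent per library, by genotype, with replicates 1 to 3 as circles, squares and triangles and the mean and SD in black. The Atp2a1 share was 9.82% to 17.6% in WT and 6.71% to 9.24% in libraries labelled eIF5A-KO, while the Casq1 shares overlapped. The panels have separate scales, each starting at 0.

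Calsequestrins bind calcium inside the store, and both genes were low. Casq1 (ENSMUSG00000007122, chr1 from 172209894 to 172219868, minus strand), the fast-muscle form, had 49, 106 and 62 counts in WT and 37, 48 and 62 in libraries labelled eIF5A-KO. These correspond to 1.598, 2.85 and 1.86 FPKM and to 1.15, 1.45 and 1.79 FPKM, with a log2 fold change of -0.53 ± 0.32 (SE; interval -1.26 to 0.19; edgeR adjusted p = 0.854). Only WT replicate 2 was clearly above the other libraries, and without it the log2 fold change was -0.25. Casq2 (ENSMUSG00000027861, chr3 from 102086415 to 102146514, plus strand), the cardiac and slow-muscle form, had 12, 79 and 20 counts in WT and 26, 25 and 20 in libraries labelled eIF5A-KO. Its log2 fold change of -0.56 ± 0.58 (SE; interval -1.87 to 0.75; edgeR adjusted p = 0.930) became 0.51 when WT replicate 2, which held 79 of its WT counts, was left out. The direction of Casq2 therefore rested on a single library.

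The voltage sensor subunits showed no difference past the spread between libraries. Cacna1s (ENSMUSG00000026407, chr1 from 136052750 to 136119822, plus strand), the pore-forming subunit, had 11, 40 and 13 counts in WT and 6, 24 and 29 in libraries labelled eIF5A-KO. At this depth its log2 fold change, -0.08 ± 0.61 (SE), had an interval from -1.44 to 1.28 (edgeR adjusted p = 0.990), and its sign changed to 0.63 without WT replicate 2 and to 0.35 without the library labelled eIF5A-KO replicate 1. Cacnb1 (ENSMUSG00000020882, chr11 from 98001508 to 98023034, minus strand), the beta subunit that carries the pore subunit to the membrane, was at 0.969, 1.43 and 0.983 FPKM in WT and at 1.19, 1.40 and 1.07 in libraries labelled eIF5A-KO. Its log2 fold change was 0.11 ± 0.26 (SE; interval -0.48 to 0.70; edgeR adjusted p = 0.976). The interval for Cacnb1 was thus narrower than that for Cacna1s, which had fewer counts and a wider spread between libraries.

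**Figure D3:**
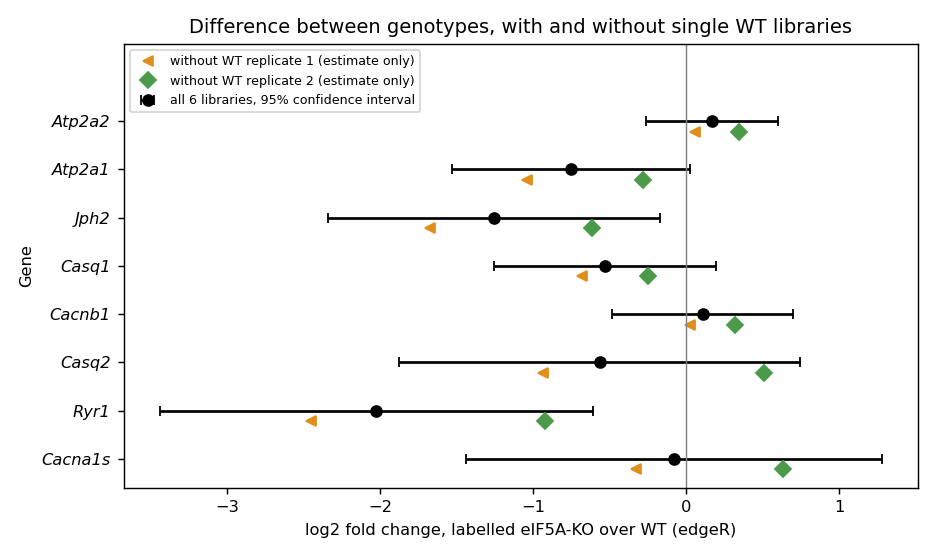
Fitted log2 fold change of the 8 tested genes, libraries labelled eIF5A-KO over WT, with 95% confidence intervals from all 6 libraries (black) and estimates without WT replicate 1 (orange triangles) or without WT replicate 2 (green diamonds). Only the intervals of Jph2 and Ryr1 lay below 0. The estimates without WT replicate 2 lay to the right of those from all libraries for the 8 genes.

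WT replicate 2 was the highest library for 8 of 8 tested genes, whereas it was the highest for 24.6% of all tested genes. The lowest library was WT replicate 1 for 4 genes and the library labelled eIF5A-KO replicate 1 for the other 4, beside 27.9% and 18.5% of all tested genes. The highest WT library exceeded the lowest by 7.42-fold for Ryr1, 5.51-fold for Jph2, 5.43-fold for Casq2, 3.00-fold for Cacna1s and 2.93-fold for Atp2a1 in FPKM. The corresponding ratios within libraries labelled eIF5A-KO were 1.49, 1.31, 1.40, 4.50 and 1.47, so Cacna1s had the wider spread there, unlike the other 4. For Casq1, Atp2a2 and Cacnb1 the ratios were 1.47 to 1.78 within WT and 1.04 to 1.56 within libraries labelled eIF5A-KO. Over the 6 libraries, 28 of 28 pairs of tested genes had a correlation above 0 (median Pearson r = 0.687), and without WT replicate 2 this held for 14 of 28 pairs (median r = 0.124). These correlations share libraries and scaling and are given as a description.

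**Figure D4:**
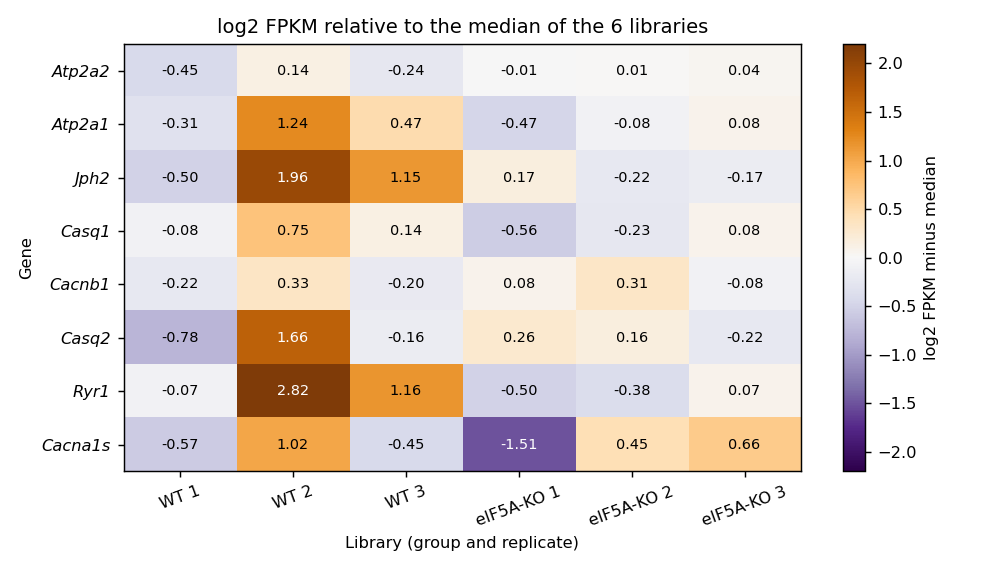
log2 FPKM of the 8 tested genes in each library, relative to the gene's median over the 6 libraries, with brown above and purple below the median. WT replicate 2 was the highest library in each row, and lay 2.82 above the median for Ryr1, whereas for Cacnb1 it was at 0.33 beside 0.31 in the library labelled eIF5A-KO replicate 2.

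Muscle markers varied between the same libraries. Myog, which drives terminal differentiation, was at 9.49, 50.5 and 21.4 FPKM in WT and at 5.92, 3.39 and 1.40 in libraries labelled eIF5A-KO. Pax7, the satellite cell factor, was at 2.17, 8.73 and 4.26 FPKM in WT and at 2.19, 1.41 and 1.80 in libraries labelled eIF5A-KO. WT replicate 2 was thus highest for both, as it was for Ryr1 and Jph2. Of the differentiating myocyte markers, 10 of 13 were tested, 10 had lower fitted levels and 5 had an unadjusted p under 0.05, where 7582 of all 14679 tested genes had lower fitted levels and 4.02% were lower at that p. Of the myoblast markers, 7 of 8 had lower fitted levels and 2 had an unadjusted p under 0.05, while 7 of 7 tested mural and smooth muscle markers had higher fitted levels, 4 of them with an unadjusted p under 0.05, beside 2.74% of all tested genes. Among these, smooth muscle myosin Myh11, at 1.36, 1.43 and 1.37 FPKM in WT and 3.81, 3.70 and 4.49 in libraries labelled eIF5A-KO, was 1 of the 3 genes that passed at an adjusted p of 0.05 (log2 fold change 1.52, edgeR adjusted p = 0.0486). This call was lost in limma-voom and in edgeR with library size alone, where 0 genes passed. It was also lost in edgeR when any single library other than WT replicate 1 was left out. The summed mural level was 90.07 to 139.5 FPKM in WT and 153.3 to 179.4 in libraries labelled eIF5A-KO. All 6 endothelial markers had higher fitted levels and 0 had an unadjusted p under 0.05, whereas 1 of 8 fibroblast and 1 of 5 macrophage markers did. The part of cell composition, or of the mitochondrial share of WT replicate 1, in the values of the calcium genes was not tested.

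Further genes of muscle calcium handling were grouped in 5 lists, written with earlier results of these data known. The lists held 46 genes, of which 45 were in the tables and 40 were tested. Of these, 23 had lower and 17 had higher fitted levels, and the median log2 fold change was -0.08. None passed at an adjusted p of 0.05 in edgeR, DESeq2, limma-voom or limma on log2 FPKM. At an unadjusted p under 0.05 in edgeR, 4 of the 40 were lower and 1 was higher, beside 4.02% and 2.74% of all tested genes. With DESeq2, 3 were lower (against 4% of all genes) and 1 was higher. With limma-voom and limma on log2 FPKM with 1 or 0.1 added, 4 were lower (against 3.81%, 3.7% and 3.74%) and 0 were higher. In 8 of the 40 all libraries of one group lay beyond those of the other, 5 downward and 3 upward, beside 6.83% and 5.68% of all tested genes.

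Partners of the voltage sensor and triad included the STAC adaptors Stac3 and Stac2, of a family whose members help the voltage sensor reach the membrane and couple to the release channel. Stac3, the skeletal muscle form, was at 2.00, 3.08 and 2.47 FPKM in WT and at 1.57, 0.857 and 0.488 in libraries labelled eIF5A-KO (log2 fold change -1.38 ± 0.41 SE, edgeR unadjusted p = 0.0075, adjusted p = 0.484). Stac2 was at 3.63, 8.68 and 4.20 FPKM in WT and at 2.99, 2.27 and 1.46 in libraries labelled eIF5A-KO (log2 fold change -1.31 ± 0.38 SE, edgeR unadjusted p = 0.00671, adjusted p = 0.484). The groups did not overlap for either gene, which occurred downward for 6.83% of all tested genes, and neither passed after adjustment. Without WT replicate 2 the log2 fold change of Stac2 was -0.81. Of the 11 tested genes in this list, 9 had lower fitted levels, with a median of -0.18. The most abundant, Bin1 (T-tubule membrane curvature), Jsrp1 (a junctional reticulum protein) and Rrad (a small GTPase that inhibits calcium channels), had log2 fold changes of -0.08, -0.18 and 0.11.

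Among partners of the release channel and proteins inside the store, 8 of 13 tested genes had lower fitted levels, with a median of -0.07. Srl, sarcalumenin, a calcium-binding store protein, was at 1.09, 3.08 and 1.38 FPKM in WT and at 0.501, 0.464 and 0.943 in libraries labelled eIF5A-KO (log2 fold change -1.55 ± 0.44 SE, edgeR unadjusted p = 0.0062, adjusted p = 0.476). Hrc, the histidine-rich calcium-binding protein of the store, was at 0.471, 0.593 and 0.343 FPKM against 0.118, 0.321 and 0.242 (log2 fold change -1.05 ± 0.46 SE, edgeR unadjusted p = 0.0479, adjusted p = 0.728). The groups did not overlap for either gene. Without WT replicate 2 the log2 fold change of Srl was -0.96, and that of Hrc was -0.83 (edgeR unadjusted p = 0.159). The unadjusted p of Hrc was also above 0.05 without WT replicate 1 (0.0792) and without the libraries labelled eIF5A-KO replicate 1 (0.162) or 3 (0.0926) in edgeR. S100a1, a small calcium sensor that binds the release channel, was at 71.4, 42.3 and 59.0 FPKM in WT and at 114, 91.6 and 61.3 in libraries labelled eIF5A-KO (log2 fold change 0.62 ± 0.27 SE, edgeR unadjusted p = 0.0457, adjusted p = 0.724). Its log2 fold change was 0.41 without the library labelled eIF5A-KO replicate 1 (edgeR unadjusted p = 0.188), and the edgeR unadjusted p was also above 0.05 without WT replicate 2 (0.126), WT replicate 3 (0.0897) or the library labelled eIF5A-KO replicate 2 (0.0944). The abundant and widely expressed members Calr (calreticulin), Calm2 (calmodulin) and Fkbp1a (the FK506-binding channel subunit) had log2 fold changes of 0.29, -0.32 and 0.17.

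The small peptides that restrain the SERCA pumps in muscle were barely detected: the mean over the 6 libraries was 0.191 FPKM for Sln (sarcolipin), 0.140 for Mrln (myoregulin) and 0.0218 for Pln (phospholamban), and the single gene tested in this list, the pump Atp2a3, had a log2 fold change of -0.44. Of the 10 genes of store-operated entry and IP3 receptors, which refill or empty the store in most cell types, 9 had higher fitted levels, with a median of 0.23, but 0 had an unadjusted p under 0.05. The entry channels Orai1 and Orai3 and the store sensor Stim2 had log2 fold changes of 0.37, 0.28 and 0.13. Of the 5 genes of calcium export and cytosolic buffering, 4 had lower fitted levels, with a median of -0.38 and 0 with an unadjusted p under 0.05. Parvalbumin (Pvalb), a calcium buffer of fast muscle, and the plasma membrane pumps Atp2b1 and Atp2b4 had log2 fold changes of -0.38, -0.26 and 0.05.

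**Figure D5:**
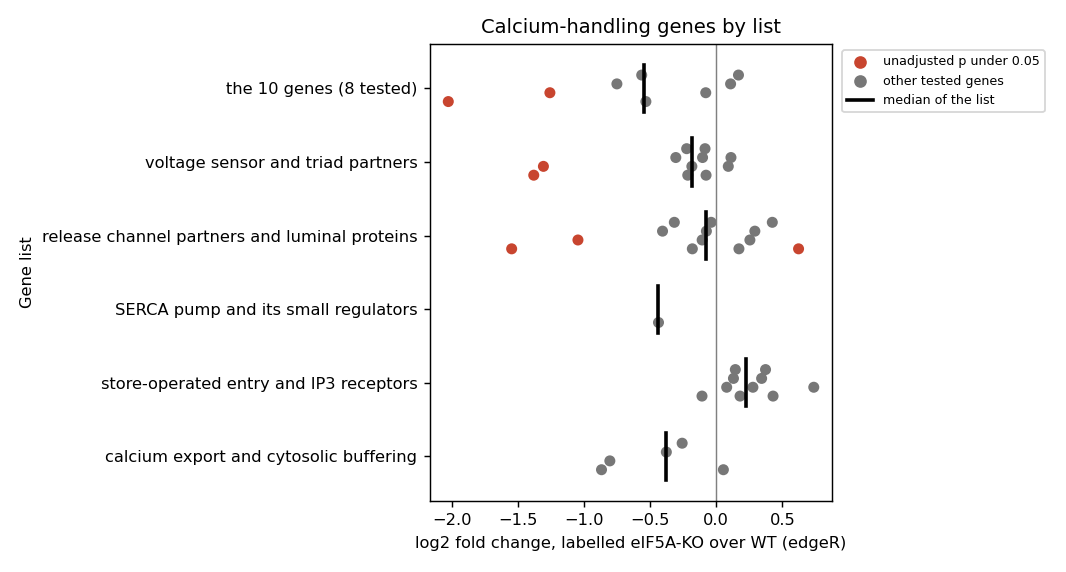
Fitted log2 fold change, libraries labelled eIF5A-KO over WT, for the tested genes among the 10 and in each of the 5 further lists, as points that are red where the unadjusted p was under 0.05, with the list's median as a black line. The median of the 8 tested genes lay at -0.55 and that of store-operated entry and IP3 receptors at 0.23.

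Across libraries, the genes whose pattern was most like the average of the 8 tested genes, among 11034 genes with a mean of at least 5 CPM, were Stk35 (Pearson r = 0.994 over 6 libraries), Chil3, Maml3, Zfp217, Igdcc4, Sorcs2, Stat5a, Pcdh18, Zfp41 and Tyk2 (r = 0.982). That average was itself highest in WT replicate 2, so genes picked for likeness to it were highest there by selection. The sharpest was Chil3, a secreted chitinase-like protein, at 0.780, 27.8 and 3.20 FPKM in WT and 2.19, 3.54 and 2.70 in libraries labelled eIF5A-KO. Without WT replicate 2, r was 0.991 for Stk35 and 0.949 for Chil3, which had been picked with that library included.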

How the data were processed

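Libraries were made from TRIzol-extracted RNA with the NEBNext Ultra kit, and the authors aligned reads to mm10 with HISAT and deposited gene counts, not normalized, and FPKM values. The annotation, strand setting and treatment of multimapping reads are not given in the sources used here. The deposited FPKM values were the counts divided by gene length and by a median-of-ratios size factor, so they serve for levels between genes. Counts were tested in R 4.3.3 with edgeR 4.0.16 (filterByExpr, TMM factors, quasi-likelihood F test, Benjamini-Hochberg adjustment over 14679 genes), eIF5A-KO against WT with no covariate. Alternatives used DESeq2 1.42.0, limma 3.58.1, other scalings and filters, a replicate block and each library left out. On simulated counts for 14679 genes of this comparison, edgeR called 96 of 105 genes changed by a log2 of 2 and 28 of 95 changed by 1, and also called 19 unchanged genes. These counts were drawn gene by gene, without differences that genes of a library share, so the rates need not hold for the measured libraries. Levels of single genes were compared by exact permutation. The members and lists were chosen with earlier results of these data known. From the lists, genes with an unadjusted p under 0.05 and up to 3 more per list with the highest FPKM were named. Like patterns were ranked by Pearson r of log2(CPM + 1) with the mean of the standardized members.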

Additional observations from a re-analysis of the deposited data

How the results depend on the processing

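The 6 lower and 2 higher directions of the tested genes kept their sign under the other scalings, filters and tests and the replicate block, but not under each left-out library; Cacna1s had no value where at least 10 counts were required in every library. With no filter on low counts, 2 of the calcium genes passed at an adjusted p of 0.05 (Ryr1, log2 fold change -2.01, edgeR adjusted p = 1.77e-06; Jph2, -1.24, 7.39e-05), where 0.924% of 26956 genes passed; the cause was not tested. Over all genes, edgeR called 3, DESeq2 88, edgeR without a filter 249, and limma-voom, both limma fits on log2 FPKM, edgeR with DESeq2 size factors, with library size alone or with at least 10 counts in every library 0. DESeq2 gave Ryr1 an adjusted p of 0.0628. On log2(FPKM + 1) the Ryr1 change was -0.28, a scale that understates low genes. Leaving out each library in turn gave 0 to 2 calcium genes at an adjusted p of 0.05 (both without WT replicate 1) and a median log2 fold change from -0.81 to 0.036, above 0 without WT replicate 2. The ranges of log2 fold changes that crossed 0 were -0.93 to 0.51 for Casq2, -0.43 to 0.63 for Cacna1s, -0.27 to 0.084 for Bin1, -0.63 to 0.059 for Jsrp1, -0.069 to 0.29 for Rrad, -0.52 to 0.012 for Calm2, -0.73 to 0.11 for Atp2a3, -0.051 to 0.24 for Stim2, -0.20 to 0.50 for Atp2b4 and -0.83 to 0.12 for Pvalb. Leaving out WT replicate 1 gave 56 genes called over all, whereas leaving out any other single library gave 0. Deviations from the group mean had r = 0.103, -0.221 and 0.113 between same-numbered libraries, and -0.312 to 0.339 between libraries of unlike number. The sources used here describe no pairing, and these values cannot decide whether the numbers pair the samples. With the replicate block 24 genes were called over all, 0 of the calcium genes, and the median was -0.39. Ryr3 and Trdn had too few counts for a test at this depth.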
